A study of Mus musculus with 10 samples.

Results

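The genes of retinoic acid synthesis, binding and breakdown were followed in cultured mouse Wolffian ducts, which give rise to the epididymis and vas deferens in males. The 10 genes are Stra6, Rdh10, Dhrs3, Aldh1a1, Aldh1a2, Aldh1a3, Crabp1, Crabp2, Cyp26b1 and Rarb. They were chosen by gene symbol in the array's annotation, with earlier results of these data known. All 10 were among the 19505 genes measured under a name. Each was read by 1 probe set. Ducts were taken from embryos 16.5 days after mating and kept for 72 h at an air-liquid interface. The 3 vehicle cultures received culture medium, 4 cultures received 0.5 µM SAG, which activates the hedgehog pathway through Smoothened, and 3 received 25 µM cyclopamine, which blocks Smoothened. The sample titles carry the word pronephros, while the protocols describe Wolffian ducts. Mouse strain, embryo sex, the number of ducts per sample and whether vehicle cultures received solvent were not stated in the labels. The series calls the samples biological replicates.

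Retinoic acid is made from vitamin A inside tissues. Stra6 takes up retinol, Rdh10 oxidises it to retinaldehyde, Dhrs3 turns retinaldehyde back into retinol, and the Aldh1a enzymes oxidise retinaldehyde to retinoic acid. Crabp1 and Crabp2 bind retinoic acid in the cytosol and Cyp26 enzymes break it down. Retinoic acid receptors such as Rarb bind it in the nucleus and control genes there. Dhrs3, Stra6 and Rarb are themselves induced by retinoic acid in many cells. In the urogenital tract retinoic acid is known for its part in nephric duct growth and in the insertion of the ureters.

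RNA was measured on Affymetrix arrays and deposited as log2 signals of 22206 probe sets, and every level and change is on that log2 scale. Nothing else is known here of how the deposited signals were scaled. Array medians lay between 7.55 and 7.70. The hedgehog target Gli1 was highest with SAG (13.24 to 13.61), lower with vehicle (11.43 to 12.63) and lowest with cyclopamine (4.56 to 5.37), as the labels have it. All 14 measured duct epithelium markers were above 5.19, the lower quartile of the probe sets' mean signals. Cyclopamine replicate 2 stood apart on the second principal component, at 51.7, against -13.6 and -13.0 for the other cyclopamine arrays. SAG replicate 1 had the highest mean of the gonad and adrenal markers (7.07, against 5.56 to 6.15 on the other 9 arrays). With 3 or 4 arrays a group, precision is limited. Comparisons were made with limma on all probe sets, and a gene passed when its Benjamini-Hochberg adjusted p was below 0.05.

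Of the 10 genes, Crabp1 fell with SAG, and Crabp1 and Aldh1a3 rose with cyclopamine. With SAG 0 rose, 1 fell and 9 did not pass, where 0.73% of all probe sets passed (0.45% higher, 0.279% lower). With cyclopamine 2 rose, 0 fell and 8 did not pass, where 5.12% of all probe sets passed (2.17% higher, 2.95% lower). Between SAG and cyclopamine directly, 0 genes were higher with SAG, 2 were lower and 8 did not pass, where 11.3% of all probe sets passed (5.42% higher, 5.92% lower). The arrays did not overlap for 4 genes between SAG and vehicle (12.9% of all probe sets), 3 between cyclopamine and vehicle (23.1%) and 3 between SAG and cyclopamine (21.2%). The median change of the 10 genes was -0.26 with SAG and 0.16 with cyclopamine, against 0.01 and 0.02 over all probe sets. Both comparisons share the 3 vehicle arrays. Since the genes were chosen with earlier results of these data known, the shares describe the set and do not test it. Leaving out each array in turn gave 1 to 2 genes for SAG, 1 to 3 for cyclopamine and 2 to 3 for the direct comparison.

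**Figure D1:**
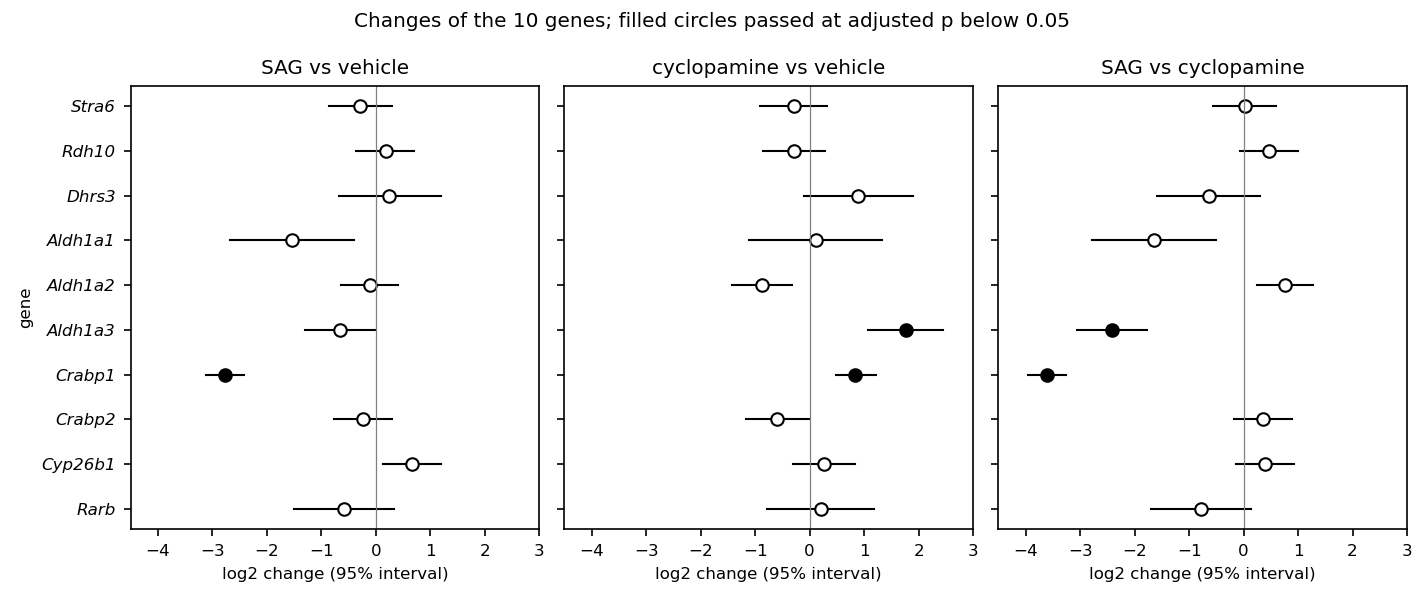
Log2 changes of the 10 genes in 3 comparisons (columns), with 95% intervals from the moderated fit. Filled circles passed the test: Crabp1 in each comparison and Aldh1a3 in both comparisons that involve cyclopamine.

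Of the 10 genes, those that act on retinol and retinaldehyde ahead of the Aldh1a step, Stra6, Rdh10 and Dhrs3, did not pass in any comparison. Stra6 lay at 13.49, 12.90 and 13.77 on the vehicle arrays, at 13.23, 13.36, 12.98 and 12.87 on the SAG arrays, and at 12.52, 13.49 and 13.27 on the cyclopamine arrays. The groups overlapped throughout. Its change was -0.28 ± 0.26 (SE; 95% interval -0.85 to 0.30, limma adjusted p = 0.763) with SAG and -0.29 ± 0.28 (-0.91 to 0.32, limma adjusted p = 0.626) with cyclopamine.

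Rdh10, the enzyme that oxidises retinol to retinaldehyde, lay at 8.98, 9.67 and 8.93 on the vehicle arrays. It lay at 9.45, 9.51, 9.14 and 9.38 with SAG and at 9.40, 8.89 and 8.42 with cyclopamine. The lowest Rdh10 value of all was that of cyclopamine replicate 3, and the groups overlapped. The change was 0.18 ± 0.24 (95% interval -0.36 to 0.71, limma adjusted p = 0.847) with SAG and -0.29 ± 0.26 (-0.86 to 0.29, limma adjusted p = 0.608) with cyclopamine.

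Dhrs3, which works in the opposite direction to Rdh10, varied most within the vehicle group, at 13.63, 12.02 and 14.10. The SAG arrays were close together (13.62, 13.53, 13.57 and 13.29), and the cyclopamine arrays lay at 14.11, 14.74 and 13.57. Vehicle replicate 2 was the lowest array and cyclopamine replicate 2 the highest. The change with cyclopamine was 0.89 ± 0.45 (95% interval -0.11 to 1.90, limma adjusted p = 0.326). That with SAG was 0.25 ± 0.43 (-0.68 to 1.19, limma adjusted p = 0.878), and without vehicle replicate 2 it turned to -0.36. The per-array difference Rdh10 minus Dhrs3 was -4.13 ± 0.22 (SD, n = 4) with SAG and -5.24 ± 0.57 (n = 3) with cyclopamine, without overlap (exact permutation p = 0.0286, two-sided, the smallest this design allows; 0.107 after adjustment over 15 comparisons).

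**Figure D2:**
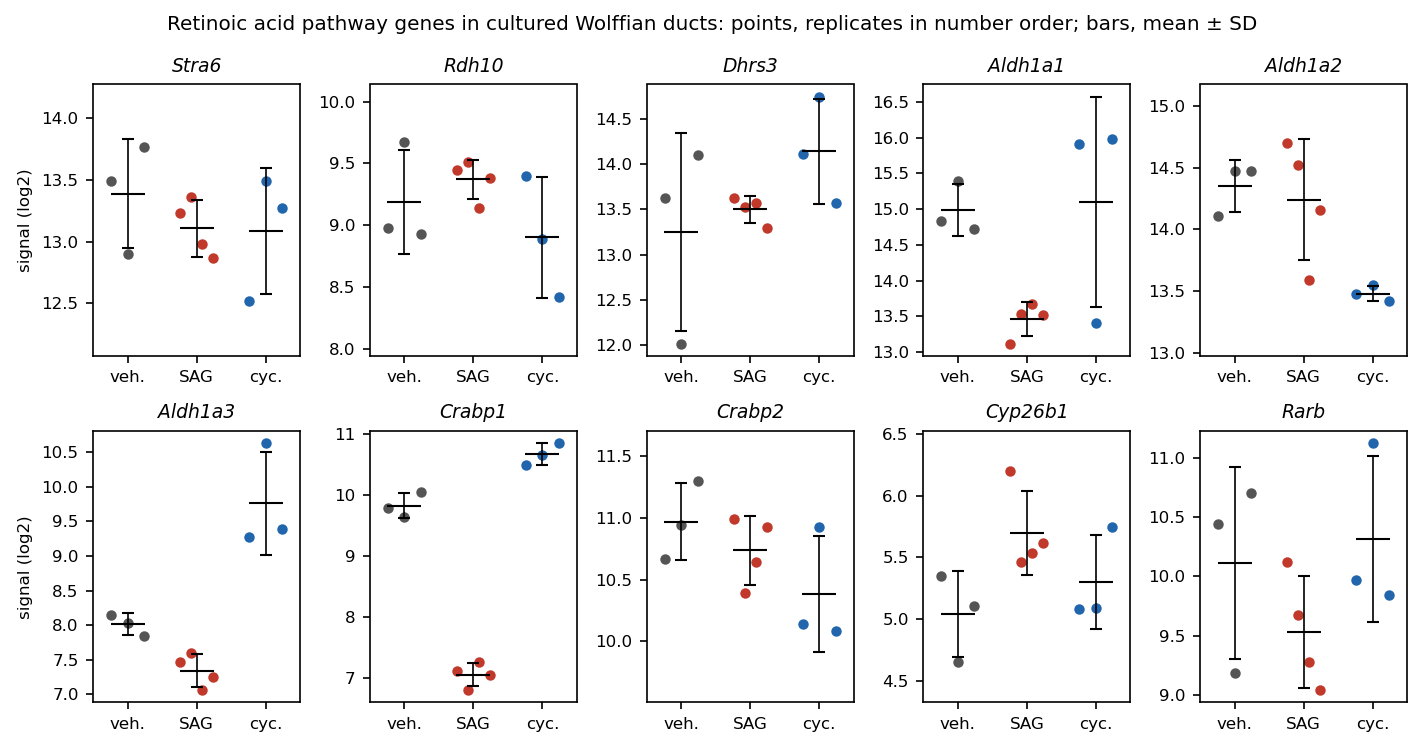
Log2 signal of each gene on every array, with the vehicle (grey), SAG (red) and cyclopamine (blue) groups on the horizontal axis and mean ± SD in black. Each panel has its own vertical range; Crabp1 and Aldh1a3 are the genes whose 3 groups are fully apart, and Aldh1a1 shows cyclopamine replicate 2 at 13.41 below the other cyclopamine arrays.

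The retinaldehyde dehydrogenases took different courses. Aldh1a3 was higher with cyclopamine, Aldh1a2 had its lowest values there, and Aldh1a1 had its lowest values with SAG and on cyclopamine replicate 2. Aldh1a3 lay at 8.15, 8.03 and 7.84 with vehicle, at 7.47, 7.60, 7.06 and 7.25 with SAG, and at 9.28, 10.63 and 9.39 with cyclopamine. All cyclopamine arrays lay above all vehicle arrays, which lay above all SAG arrays. In bulk RNA, more cells that express a gene and more of its RNA per cell cannot be told apart. Aldh1a3 rose 3.38-fold with cyclopamine (1.76 ± 0.31, 95% interval 1.07 to 2.44, limma adjusted p = 0.00995). It passed with each of the 10 arrays left out, and the rise was 1.32 without cyclopamine replicate 2. The call ended narrowly when only these groups were fitted (adjusted p = 0.0503) and with unmoderated variances (0.0577). With SAG its change was -0.66 ± 0.29 (-1.30 to -0.02) and did not pass (limma adjusted p = 0.442). SAG against cyclopamine gave -2.42 ± 0.29, 5.35-fold lower (limma adjusted p = 0.000381).

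Aldh1a2, the main retinoic acid-making enzyme of the early embryo's mesoderm, lay at 14.11, 14.47 and 14.47 with vehicle and at 14.70, 14.52, 13.59 and 14.16 with SAG. With cyclopamine it lay at 13.48, 13.55 and 13.42. These 3 values are below every other array, SAG replicate 3 being the nearest. The change with cyclopamine was -0.87 ± 0.25 (95% interval -1.42 to -0.32) and did not pass (limma adjusted p = 0.0781). It passed without SAG replicate 3 (adjusted p = 0.0268), an array that enters this comparison only through the shared spread, and with only these groups fitted (0.0381). With SAG the change was -0.11 ± 0.23 (-0.63 to 0.41, limma adjusted p = 0.909), and without SAG replicate 3 it was 0.11. SAG against cyclopamine gave 0.76 ± 0.23 (limma adjusted p = 0.0647), and 0.98 without SAG replicate 3 (0.00776). It also passed with arrays centred on their medians (0.81, adjusted p = 0.0454).

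Aldh1a1 lay at 14.84, 15.40 and 14.72 with vehicle and at 13.12, 13.53, 13.67 and 13.52 with SAG. All SAG arrays lay below all vehicle arrays. The cyclopamine arrays fell apart, at 15.91 and 15.98 for replicates 1 and 3 and at 13.41 for replicate 2. The change with SAG was -1.53 ± 0.52 (95% interval -2.67 to -0.39) and did not pass (limma adjusted p = 0.281). Without cyclopamine replicate 2 the same change of -1.53 had an SE of 0.19 and an adjusted p of 0.00539. With only the SAG and vehicle groups fitted, the adjusted p was 0.0104. The change with cyclopamine was 0.11 ± 0.55 (-1.11 to 1.33, limma adjusted p = 0.944), and without cyclopamine replicate 2 it was 0.96 (0.0341). SAG against cyclopamine gave -1.64 ± 0.52 (limma adjusted p = 0.0695), and -2.49 without that array (7.33e-05).

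Pairs of these enzymes were compared within each array, which shows unequal change and not which has the higher level. Aldh1a3 minus Aldh1a2 was -3.72 ± 0.70 (SD, n = 3) with cyclopamine and -6.34 ± 0.35 (n = 3) with vehicle, a shift of 2.63 without overlap of the arrays. Against SAG (-6.90 ± 0.29, n = 4) the arrays did not overlap either (exact permutation p = 0.0286, two-sided; 0.107 after adjustment over 15 comparisons). With 3 arrays against 3, the smallest possible exact permutation p is 0.10, which cyclopamine against vehicle reached (0.136 after adjustment). None of the 15 comparisons over 5 pairs passed after adjustment, and 4 had an unadjusted exact permutation p of 0.0286. That is the smallest possible with 4 arrays against 3, so adjustment over 15 left little room for any to pass. The lack of a pass therefore says little about unequal change.

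Crabp1 showed the clearest change of the 10 genes. Its vehicle arrays lay at 9.78, 9.64 and 10.04, its SAG arrays at 7.12, 6.80, 7.26 and 7.04, and its cyclopamine arrays at 10.49, 10.65 and 10.84. The 3 groups were fully apart, with vehicle in the middle. This held for 2 of the 10 genes, Crabp1 and Aldh1a3, and for 2.36% of all probe sets. With SAG, Crabp1 fell by 2.76 (SE 0.15, 95% interval -3.11 to -2.42), a 6.79-fold drop (limma adjusted p = 5.86e-05). It ranked 1 by p-value among 22206 probe sets and passed with each array left out (adjusted p 0.00018 to 0.00118).

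With cyclopamine, Crabp1 rose 1.79-fold (0.84 ± 0.17, 95% interval 0.48 to 1.21, limma adjusted p = 0.017). It no longer passed when vehicle replicate 1 (adjusted p = 0.0665), vehicle replicate 2 (0.0677) or cyclopamine replicate 3 (0.0599) was left out, or with only these groups fitted (0.0525). SAG against cyclopamine gave -3.61 ± 0.15, 12.2-fold lower (limma adjusted p = 4.53e-07). A contrast of vehicle with the midpoint of the other groups was added after the Crabp1 values were seen, so for Crabp1 it describes the pattern that prompted it. Its midpoint was at -0.96 ± 0.14 from vehicle (limma adjusted p = 0.0178). Of all probe sets 0.315% passed this contrast (0.045% higher, 0.27% lower). It did not pass when any vehicle array was left out (adjusted p = 0.0958, 0.0976 and 0.0889 for replicates 1, 2 and 3), nor with unmoderated variances (0.113). For Aldh1a3 the midpoint was at 0.55 ± 0.26 from vehicle and did not pass (limma adjusted p = 0.490).

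The stretch before the Crabp1 start is shown because this gene carries the largest change. It covers the 250 bases upstream in RefSeq on GRCm38.p6, chr9:54764498-54764747, plus strand. Capitals mark matches to the GC box GGGCGG on either strand.
Crabp1: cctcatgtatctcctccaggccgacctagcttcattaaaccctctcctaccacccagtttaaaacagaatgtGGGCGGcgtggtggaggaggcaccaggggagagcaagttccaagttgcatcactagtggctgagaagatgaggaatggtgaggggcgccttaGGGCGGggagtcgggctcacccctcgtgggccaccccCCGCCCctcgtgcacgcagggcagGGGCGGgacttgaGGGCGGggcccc

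The stretch held 5 GC boxes and had 63.6% G and C. GC boxes, in any number, were present in 35.7% of the 32851 RefSeq promoter windows of 300 bases (250 before to 50 after a start). Windows of Cyp26b1 and Stra6, which did not pass in any comparison, also held GC boxes. The GLI motif TGGGTGGTC, searched on both strands, was found in none of the 13 windows of the 7 genes that had one, and in 0.253% of all windows. Aldh1a3, Rdh10 and Crabp2 had no window. With a motif so rare, a match in 13 windows was unlikely, so its absence says only that these letters are not within them.

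Crabp2, the paralogue known for delivering retinoic acid to its receptors, did not follow Crabp1. It lay at 10.67, 10.94 and 11.30 with vehicle, at 10.99, 10.39, 10.64 and 10.93 with SAG, and at 10.14, 10.93 and 10.08 with cyclopamine. All groups overlapped. The change was -0.23 ± 0.24 (95% interval -0.77 to 0.30, limma adjusted p = 0.788) with SAG and -0.59 ± 0.26 (-1.16 to -0.02, limma adjusted p = 0.247) with cyclopamine. Crabp1 minus Crabp2 was -3.68 ± 0.24 (SD, n = 4) with SAG, -1.15 ± 0.23 (n = 3) with vehicle and 0.28 ± 0.53 (n = 3) with cyclopamine, with no overlap between any groups. SAG differed from vehicle by -2.53 in this measure (exact permutation p = 0.0286, two-sided, the smallest this design allows; 0.107 after adjustment over 15 comparisons).

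Among all 19504 other named genes, the array-by-array profile closest to that of Crabp1 was that of Mal2, an epithelial membrane protein, with a root mean square difference of 0.60 over 10 arrays after centring each gene. Hoxb9 (0.63) and the kinesin gene Kif12 (0.64) followed. For comparison, the centred Crabp1 profile itself had a root mean square of 1.60. Closest to Aldh1a3 were Frmpd4 and Fam149a (both 0.24) and Pax8, a transcription factor of the nephric lineage (0.29), where the Aldh1a3 profile itself had a root mean square of 1.08.

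Cyp26b1, which breaks down retinoic acid, was dim. It lay at 5.35, 4.65 and 5.11 with vehicle, at 6.20, 5.46, 5.54 and 5.62 with SAG, and at 5.08, 5.09 and 5.75 with cyclopamine. Each SAG value exceeded every vehicle value. The change with SAG was 0.67 ± 0.24 (95% interval 0.13 to 1.20) and did not pass (limma adjusted p = 0.324). With cyclopamine it was 0.27 ± 0.26 (-0.30 to 0.84, limma adjusted p = 0.638). The vehicle mean of 5.04 was under the lower quartile of 5.19, so these are values near the dim end of the array.

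Rarb, the receptor whose own promoter responds to retinoic acid, lay at 10.44, 9.18 and 10.70 with vehicle. It lay at 10.12, 9.67, 9.28 and 9.04 with SAG and at 9.97, 11.12 and 9.84 with cyclopamine. The groups overlapped, with vehicle replicate 2 among the lowest and cyclopamine replicate 2 the highest. The change was -0.58 ± 0.42 (95% interval -1.5 to 0.34, limma adjusted p = 0.677) with SAG and 0.20 ± 0.44 (-0.78 to 1.18, limma adjusted p = 0.864) with cyclopamine. The latter was -0.26 without vehicle replicate 2 and -0.20 without cyclopamine replicate 2.

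The Rarb promoter is shown because it holds a match to a retinoic acid response element. This motif is a pair of half-sites in the same direction, each being AGGTCA, the variant AGTTCA, the variant GGGTCA, or the variant GGTTCA, with 5 bases between them, searched on both strands. The stretch is the 250 bases before the RefSeq start on GRCm38.p6, chr14:16575477-16575726, minus strand, with the half-sites in capitals.
Rarb: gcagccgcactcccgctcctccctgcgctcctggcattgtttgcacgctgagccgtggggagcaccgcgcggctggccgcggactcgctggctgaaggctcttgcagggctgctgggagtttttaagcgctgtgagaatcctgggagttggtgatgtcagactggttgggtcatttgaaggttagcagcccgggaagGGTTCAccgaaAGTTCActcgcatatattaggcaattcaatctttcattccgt

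The element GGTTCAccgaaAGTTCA lay 53 to 37 bases before the start. The motif was found in 0.0974% of the 32851 promoter windows, and in 1 of the 13 windows of the members. The same half-sites with 2 bases between them were also searched. They were found in 0.268% of all windows and in none of the members' windows. The windows of Dhrs3 (3) and Stra6 (4) held no match, which says only that these letters are not within them.

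Rarb and Dhrs3 varied together within groups. Deviations from the group means were compared for all 45 pairs of the 10 genes, with values permuted within groups (864 permutations). For Dhrs3 and Rarb, Pearson's r was 0.88 (exact permutation p = 0.00231) and Spearman's rho 0.92 (exact permutation p = 0.00231) over 10 arrays, and both were 0.104 after adjustment over 45 pairs. Without vehicle replicates 2 and 3, the arrays farthest from the median of Dhrs3, r was 0.84. The relation did not pass adjustment.

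**Figure D3:**
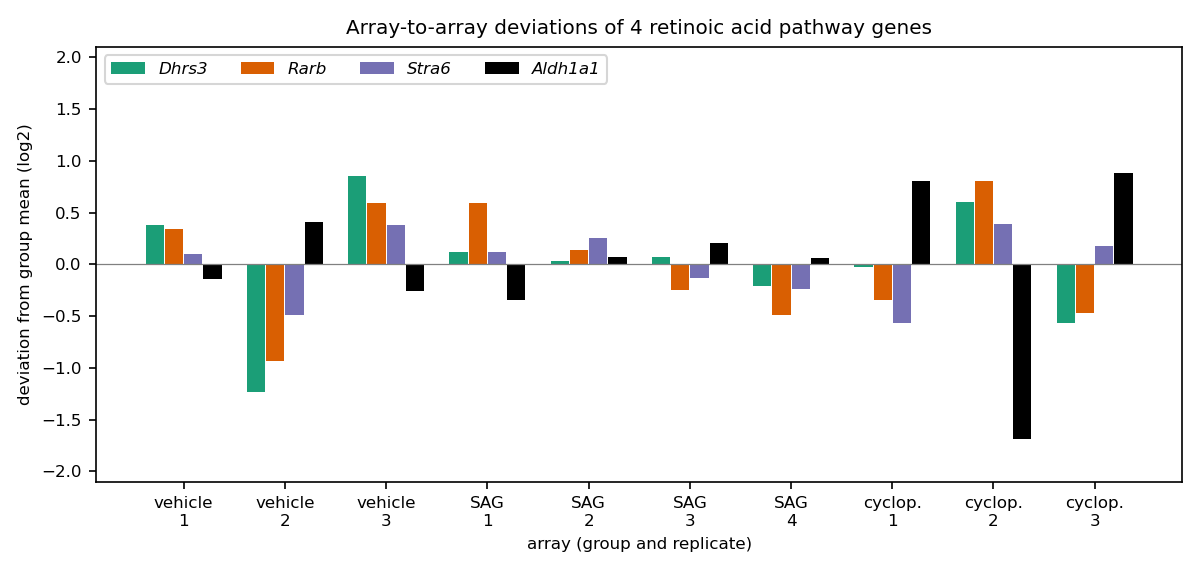
Deviation of Dhrs3, Rarb, Stra6 and Aldh1a1 from their group mean on each array, in log2 units. On vehicle replicate 2 Dhrs3 (-1.23), Rarb (-0.93) and Stra6 (-0.49) are all low and Aldh1a1 (0.41) is high; cyclopamine replicate 2 shows the opposite, with Aldh1a1 at -1.69.

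Stra6 and Rarb had r = 0.79 (exact permutation p = 0.0370, 0.333 adjusted; rho 0.72, exact permutation p = 0.0741, 0.581 adjusted; r 0.73 without cyclopamine replicate 1 and vehicle replicate 2). Aldh1a1 ran the other way, with r = -0.78 against Rarb (exact permutation p = 0.0104, 0.182 adjusted; rho -0.82, exact permutation p = 0.0197, 0.287 adjusted). Without cyclopamine replicates 2 and 3 that r was -0.76. Aldh1a1 against Dhrs3 had r = -0.62 (exact permutation p = 0.0139, 0.182 adjusted), and -0.54 without the same arrays. Rdh10 and Crabp1 had r = -0.80 (exact permutation p = 0.0162, 0.182 adjusted; rho -0.81, exact permutation p = 0.0127, 0.286 adjusted; r -0.74 without cyclopamine replicates 1 and 3). None of the 45 pairs passed adjustment. Dhrs3 and Stra6 were less close, with r = 0.65 (exact permutation p = 0.176, 0.534 adjusted), and 0.33 without vehicle replicates 2 and 3. The values show that Rarb, Dhrs3 and Stra6 were low on vehicle replicate 2 and high on cyclopamine replicate 2 relative to their group means. On cyclopamine replicate 3 they parted, with Stra6 at 0.18 and Dhrs3 and Rarb at -0.57 and -0.47.

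Beyond the 10 genes, 56 of 67 other retinoid genes from a wider list were measured under a name. With SAG, 0 rose, 1 fell and 55 did not pass, 1.79% of the list against 0.73% of all probe sets, a share that rests on 1 gene. The median size of change was 0.22, against 0.16 over all probe sets. Adh1, an alcohol dehydrogenase that can oxidise retinol, fell by 1.58 (SE 0.24, 3.00-fold, limma adjusted p = 0.0174). It lay at 16.36, 16.28 and 16.35 with vehicle and between 14.06 and 15.12 on the 4 SAG arrays, without overlap. It did not pass when any vehicle array was left out (adjusted p = 0.0811, 0.0846 and 0.0648 for replicates 1, 2 and 3), nor with unmoderated variances (0.131). Next by p-value were Hoxb5, a homeobox gene that responds to retinoic acid (-1.29 ± 0.27, limma adjusted p = 0.0644), the cytochrome P450 gene Cyp2s1 (1.83 ± 0.40, limma adjusted p = 0.0797) and the retinol-binding protein gene Rbp7 (0.53 ± 0.12, limma adjusted p = 0.0879).

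With cyclopamine, 1 of the 56 rose, 1 fell and 54 did not pass, 3.57% of the list against 5.12% of all probe sets, so the share was not above the background. Tgm2, a transglutaminase induced by retinoic acid in many cells, fell by 1.46 (SE 0.24, 2.76-fold, limma adjusted p = 0.00769) and passed with each array left out. It lay at 12.95, 12.87 and 12.77 with vehicle and at 11.83 and 11.39 on cyclopamine replicates 1 and 3, with replicate 2 lower still, without overlap. Dhrs4, a retinal reductase, rose by 0.65 (SE 0.16, limma adjusted p = 0.0456). That call held in 2 of the 10 fits with an array left out (adjusted p 0.0259 to 0.142 over the 10), and ended with only these groups fitted (0.115) and with unmoderated variances (0.080). Next by p-value were the lipid-binding protein gene Fabp5 (1.75 ± 0.46, limma adjusted p = 0.055) and the homeobox gene Meis2 (-1.18 ± 0.33, limma adjusted p = 0.0746).

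Between SAG and cyclopamine, 5 of the 56 were higher with SAG, 6 were lower and 45 did not pass, 19.6% of the list against 11.3% of all probe sets. Higher with SAG were Tgm2 (2.15 ± 0.23), Rbp4, the plasma carrier of retinol (1.89 ± 0.34), Cyp2s1 (1.71 ± 0.40), the receptor gene Rxra (0.85 ± 0.17) and the orphan receptor gene Nr2f2 (0.65 ± 0.14). Lower with SAG were the retinol dehydrogenase genes Rdh12 (-2.19 ± 0.43) and Rdh16 (-1.37 ± 0.38), Hoxb5 (-2.03 ± 0.27), Adh1 (-1.70 ± 0.24), the lipase gene Lpl (-1.43 ± 0.33) and Zbtb16 (-1.05 ± 0.25). Their limma adjusted p lay between 0.000191 and 0.0405. Tgm2, Rbp4, Rxra, Nr2f2, Rdh12, Hoxb5 and Adh1 passed with each array left out. The Rdh16 call held in 1 of 10 such fits, without cyclopamine replicate 2, where Rdh16 lay at 4.09 against 6.12 and 5.67 on the other cyclopamine arrays. Its adjusted p in the other 9 lay between 0.0565 and 0.144. The Cyp2s1 and Lpl calls ended without SAG replicate 2 (adjusted p = 0.0531 and 0.0511). The Zbtb16 call ended without SAG replicate 1 (0.0513) or 2 (0.0561) or cyclopamine replicate 1 (0.0626) or 3 (0.0878).

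**Figure D4:**
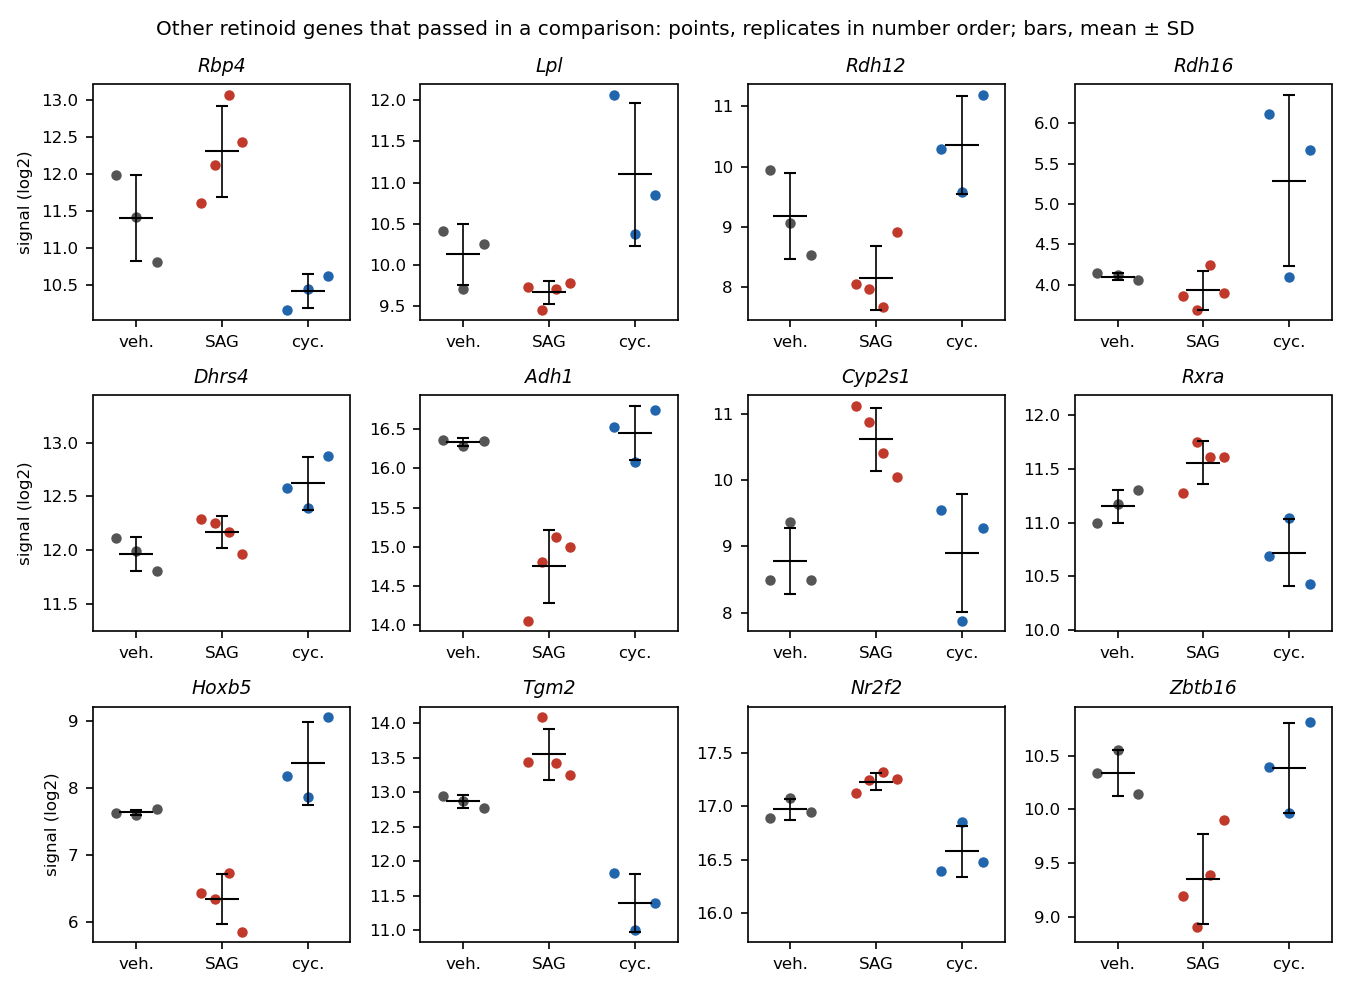
Log2 signal on every array of the 12 other retinoid genes that passed in at least 1 comparison, with mean ± SD in black and a vertical range of its own in each panel. Adh1 is lower on all SAG arrays, and Tgm2 is lower on all cyclopamine arrays.

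The other Cyp26 genes were dim. Cyp26a1, which retinoic acid induces strongly in many cells, lay between 3.97 and 4.22 on all 10 arrays, and Cyp26c1 between 3.42 and 3.82, both under that lower quartile, and neither passed in any comparison. The receptors Rara and Rarg did not pass in any comparison, nor did any member of the uptake and storage list against vehicle (0 of 10 with either compound).

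Cell type markers moved with the groups as well. The mean of 14 duct epithelium markers was 10.93 to 11.83 with vehicle, 9.88 to 10.51 with SAG and 12.14 to 12.94 with cyclopamine. This is the order in which Aldh1a3 and Crabp1 lay. With SAG 2 of the 14 fell and 0 rose, where 0.279% of all probe sets fell and 0.45% rose. With cyclopamine 7 rose and 0 fell, where 2.17% of all probe sets rose and 2.95% fell. Lhx1 went the other way with cyclopamine and did not pass (-0.90 ± 0.27, limma adjusted p = 0.0845). The mean change of the list was -1.20 with SAG and 1.25 with cyclopamine. Beside these stood -2.76 and 0.84 for Crabp1, -0.66 and 1.76 for Aldh1a3, -1.53 and 0.11 for Aldh1a1, and -1.58 and 0.12 for Adh1. The change of Aldh1a1 with cyclopamine was 0.96 without cyclopamine replicate 2. The part of the epithelium markers in these results was not tested.

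Mesenchyme and smooth muscle markers moved with cyclopamine, in the direction of Aldh1a2 and Tgm2. The mean of 14 mesenchyme markers was 14.61 to 14.68 with vehicle, 14.79 to 14.96 with SAG and 13.47 to 13.62 with cyclopamine. With cyclopamine 7 of 14 fell, where 2.95% of all probe sets did. The mean of 12 smooth muscle markers was 12.02 to 12.49, 11.74 to 11.94 and 9.58 to 10.08, and 9 of 12 fell with cyclopamine. Their part in the values of Aldh1a2 and Tgm2 was not tested.

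**Figure D5:**
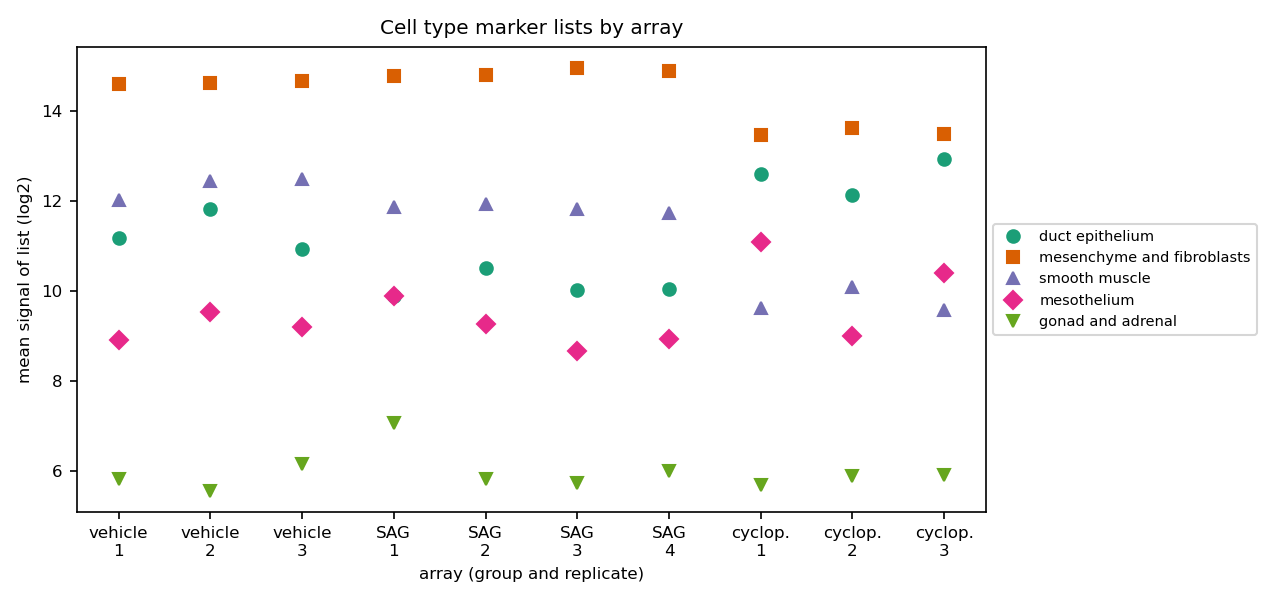
Mean log2 signal of 5 marker lists on every array; on SAG replicate 1 the mesothelium point covers the duct epithelium point, both at 9.88. Duct epithelium markers are lowest on the SAG arrays and highest on the cyclopamine arrays, mesenchyme and smooth muscle markers are lowest on the cyclopamine arrays, and the gonad and adrenal list peaks on SAG replicate 1 at 7.07.

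Mesothelium markers, which mark a lining that makes retinoic acid in the embryo, ranged from 8.91 to 9.53 with vehicle, 8.67 to 9.88 with SAG and 8.99 to 11.09 with cyclopamine. Within the cyclopamine group they were lowest on replicate 2 (8.99, against 11.09 and 10.39), the array on which Aldh1a1 was lowest in that group. Aldh1a2 was not lower on replicate 2 (13.55, against 13.48 and 13.42). Other lists were also lowest there within the group: endothelium (7.93, against 9.51 and 8.71), macrophages (9.35, against 10.98 and 9.92), duct epithelium (12.14, against 12.61 and 12.94) and kidney (6.03, against 6.05 and 6.31). Mesenchyme and smooth muscle markers were highest there, at 13.62 and 10.08. The part of these lists in the Aldh1a1 values was not tested. Of the gonad and adrenal markers, 6 of 11 had mean signals under the same lower quartile, among them Amh, Star and Cyp17a1. On SAG replicate 1, however, Cyp17a1 lay at 8.03, Hsd3b1 at 10.04 and Cyp11a1 at 9.04, each its highest value. Vehicle replicate 3 came next for these genes, at 4.45, 7.95 and 8.78. Not every marker of the list peaked on SAG replicate 1: Sox9, at 12.73, lay within its vehicle range of 12.62 to 13.51. Dropping both SAG replicate 1 and cyclopamine replicate 2, a choice made after the values were seen, gave 2 of the 10 genes for SAG (Crabp1 and Aldh1a1, both lower) and 4 for cyclopamine. Those 4 were Crabp1, Aldh1a3 and Aldh1a1, higher, and Crabp2, lower (-0.86, adjusted p = 0.0482).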

How the data were processed

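Total RNA (100 ng per sample, RNA integrity number of at least 7) was labelled with the GeneChip WT Plus kit, per the labels' protocols. The authors deposited 1 log2 value per probe set and array; base 2 is inferred, since values run from 2.95 to 18.75. For summarization, normalization, software and build: not given in the sources used here. The platform annotation gave 1 symbol to 19572 of 22206 probe sets, several to 0 and none to 2634; all 19572 gene identifiers were found in RefSeq (GRCm38.p6), and 0 symbols changed. A gene was represented by its brightest probe set. All other analysis was done here: limma 3.58.1 in R 4.3.3 fitted a mean per group to all 10 arrays (7 residual degrees of freedom, eBayes, two-sided, no filter), and errors beside changes are moderated standard errors. The procedures were tested on simulated data. There the fit recovered 2.8% to 6.0% of log2 changes of 0.5 and 59.6% to 69.6% of changes of 1.0. A gene with a small change that did not pass may therefore still have changed. The genes and lists were chosen with earlier results of these data known. Named were the 10 members, other retinoid genes that passed or came next by p-value, and the 3 closest profiles of each member that passed against vehicle. The labels state no pairing by replicate number, and the main fit used none. Alternatives were another normalization, centring, a filter on dim probe sets, other fits and thresholds, and leaving out each array. Python 3.11.15 with scipy 1.17.1 gave the permutation tests.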

Additional observations from a re-analysis of the deposited data

How the results depend on the processing

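Quantile normalization again, centring on array medians, leaving out the dimmest 25% of probe sets, an intensity-dependent prior and averaging probe sets kept every count of passing genes within 1.5 times its value. For the 10 genes, 1 passed with SAG, 2 with cyclopamine and 2 in the direct comparison. For SAG the count was 2 with only 2 groups fitted and 2 without both doubtful arrays (SAG replicate 1 and cyclopamine replicate 2). For cyclopamine it was 1 with only 2 groups fitted (Aldh1a2, lower), 1 with unmoderated variances, 1 at a threshold of 0.01 and 4 without both doubtful arrays. For the direct comparison it was 4 at a threshold of 0.1. Of the other retinoid genes, 1 passed with SAG: 3 with only 2 groups fitted, 4 with array weights, 0 with the replicate block, 0 with unmoderated variances, 2 without both doubtful arrays, 4 at 0.1 and 0 at 0.01. With cyclopamine 2 passed: 1 with only 2 groups fitted, 5 with array weights, 1 with the replicate block, 1 with unmoderated variances, 7 without both doubtful arrays, 4 at 0.1 and 1 at 0.01. In the direct comparison 11 passed: 7 with unmoderated variances, 18 at 0.1 and 6 at 0.01. The cause of these differences was not tested.

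Leaving out each array gave 0 to 3, 1 to 7 and 7 to 15 other retinoid genes for SAG, cyclopamine and the direct comparison, and 1 to 2, 1 to 3 and 2 to 3 of the 10 genes. For the paralogue pairs, leaving out an array left too few arrays for any of the 15 comparisons to pass adjustment, so those fits say nothing of stability. With an array left out, changes that had not passed turned sign for Aldh1a1 with cyclopamine (range -0.33 to 0.96), Aldh1a2 with SAG (-0.26 to 0.11), Dhrs3 with SAG (-0.36 to 0.68), Stra6 between SAG and cyclopamine (-0.27 to 0.21) and Rarb with cyclopamine (-0.26 to 0.50).

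The replicate block kept the calls of Crabp1 and Aldh1a3; the call of the Crabp1 midpoint (adjusted p = 0.0728) and those of Adh1 with SAG (0.0707) and Dhrs4 with cyclopamine (0.101) ended. Deviations of same-numbered arrays correlated between -0.193 and 0.237, and those of other arrays between -0.221 and 0.234. With so few arrays a group, these values cannot settle whether the numbers pair the samples. Low signal limits Cyp26b1, Cyp26a1, Cyp26c1 and Rdh16. The mean over all arrays was 5.39 for Cyp26b1, near the lower quartile of 5.19. It was below that quartile for Rdh16 (4.39), Cyp26a1 (4.09) and Cyp26c1 (3.63).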
